A study of Schizosaccharomyces pombe with 3 samples.

Results

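The spindle assembly checkpoint genes of fission yeast, Schizosaccharomyces pombe, were measured on 3 Affymetrix expression arrays of wild type cells. The 7 genes, mad1, mad2, mad3, bub1, bub3, mph1 and ark1, were taken from the probe annotation by name, with no threshold on a measured value. They are 7 of the 2896 fission yeast genes that the annotation named. All 7 were present, each with 1 probe set. The strain was h+, the plus mating type. It carried leu1-32, ade6-210 and an altered ura4, ura4-DS/E, and grew at 30 degrees in YEA, a rich medium. All 3 arrays formed 1 group with no treatment or mutant to compare with. Whether each array had its own culture was not stated, so the spread between them may be technical. The growth phase and the share of cells in mitosis were not given, and in such bulk RNA fewer mitotic cells and less RNA per cell cannot be told apart.

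The spindle assembly checkpoint delays the separation of sister chromatids until every chromosome is attached to the spindle. At an unattached kinetochore, the kinase Mph1 phosphorylates the scaffold Spc7, which recruits Bub3 and Bub1 and then Mad1 with Mad2. Mad2 and Mad3 bind Slp1, the activator of the anaphase-promoting complex (APC/C), and so protect securin and cyclin B from degradation. Ark1, the Aurora kinase of fission yeast, acts upstream by correcting faulty attachments and by helping to load the checkpoint proteins.

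Signal here is the linear MAS5 intensity of a probe set, in arbitrary units, and all means and SDs are of log2 signal over the 3 arrays. Probe brightness depends on probe sequence, so an order of genes by signal mixes transcript level with probe brightness. The median of the 2896 named fission yeast genes, called the median gene here, had a signal of 298, 302 and 296 on arrays 1, 2 and 3. The background limit, the 95th percentile of the probe sets of another yeast on the same arrays, was 1.20, 1.24 and 1.18. All 3 P-cell markers and all 7 M-cell markers were above that limit by limma, as were 99.9% of all genes, so this does not bear on the mating type. Their mean log2 signals ran from 3.86 to 8.68 for the P-cell markers and from 2.14 to 8.42 for the M-cell markers.

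All 7 checkpoint genes were above the background limit, and all lay below the median gene in signal. The genes fell in a brighter set of 5, with mean log2 signals from 7.32 to 7.96, and a dimmer pair, ark1 and mph1, at 5.44 and 5.34. By limma, 7 of the 7 were above the background limit, against 99.9% of all genes tested, so passing it does not set them apart. Below the median gene were 7 of 7 against 50.0% of all genes, in the bottom 25% of signal 2 of 7 against 25.0%, and in the top 25% 0 of 7 against 25.0%. Their median log2 signal was 7.54, beside 8.22 for all genes. With 7 genes chosen by name, these shares are descriptions and carry no test.

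Mad2 and Mad3 form the diffusible inhibitor together with Slp1. The gene mad2 (SPBC20F10.06) encodes the protein that changes shape to capture Slp1. Its signal was 242, 246 and 256 on arrays 1, 2 and 3. The 3 arrays lay within 1.05-fold of one another, and the mean log2 signal was 7.96 ± 0.04 (SD, n = 3). This was the highest of the 7 genes, with 41.7% of all genes lower, and it was 7.68 above the limit on the log2 scale (SE 0.05, limma adjusted p = 1.73e-13).

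The gene mad3 (SPCC1795.01C) encodes the fission yeast relative of BubR1, without its kinase domain. Its signal was 259, 214 and 259. Array 2 was lower than both others, which were nearly equal, and the mean was 7.92 ± 0.16, with 40.9% of all genes lower. It was 7.65 above the limit (SE 0.07, limma adjusted p = 2.43e-12). The neighbours mad2 and mad3 overlapped in range: mad2 was higher on 1 of 3 arrays and the mean difference was 0.03 ± 0.16.

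The gene mad1 (SPBC3D6.04C) encodes the coiled-coil partner that carries Mad2 to the kinetochore. Its signal was 181, 185 and 191. The arrays were close, within 1.05-fold, and the mean was 7.54 ± 0.04, with 32.2% of all genes lower and a distance of 7.27 from the limit (limma adjusted p = 2.18e-13).

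The Bub proteins form the platform that Mad1 is recruited to. The kinase and scaffold gene bub1 (SPCC1322.12C) had signals of 192, 188 and 194. It had the smallest spread of the 7, within 1.03-fold, with a mean of 7.58 ± 0.02, and 32.9% of all genes were lower. The distance from the limit was 7.31 (limma adjusted p = 1.99e-13). Its range overlapped that of mad1, although bub1 was higher on 3 of 3 arrays, by 0.04 ± 0.03. The step from mad3 down to bub1 was 0.35 ± 0.14, with no overlap of their ranges.

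The gene bub3 (SPAC23H3.08C) encodes the beta-propeller protein that reads phosphorylated Spc7 and binds Bub1 and Mad3. Its signal was 173, 144 and 162. Array 2 was again the lowest, and the mean was 7.32 ± 0.13, with 28.0% of all genes lower. It lay 7.05 above the limit (limma adjusted p = 1.99e-12) and below mad1 by 0.22 ± 0.15, without overlap in range. The 5 Mad and Bub genes thus spanned 0.64 on the log2 scale.

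The upstream kinase genes had lower signals. For ark1 (SPCC320.13C) the signal was 40.7, 42.1 and 48.0. Array 3 was the highest, and the mean was 5.44 ± 0.13, with 9.29% of all genes lower. It was 5.17 above the limit (SE 0.06, limma adjusted p = 1.27e-11), which is 36.1-fold.

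For mph1 (SPBC106.01), the fission yeast Mps1 kinase, the signal was 40.2, 42.9 and 38.4. Here array 2 was the highest and array 3 the lowest, and the mean was 5.34 ± 0.08, with 8.56% of all genes lower. It was 5.07 above the limit (SE 0.04, limma adjusted p = 1.23e-12), which is 33.5-fold. The ranges of ark1 and mph1 overlapped, with a mean difference of 0.11 ± 0.19 and ark1 higher on 2 of 3 arrays. Between bub3 and ark1 lay a gap of 1.87 ± 0.19, or 3.66-fold in signal, which 540 other genes filled. The gap was at least 1.75 on each of the 3 arrays. The third kinase gene among the 7, bub1, lay in the brighter set.

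**Figure D1:**
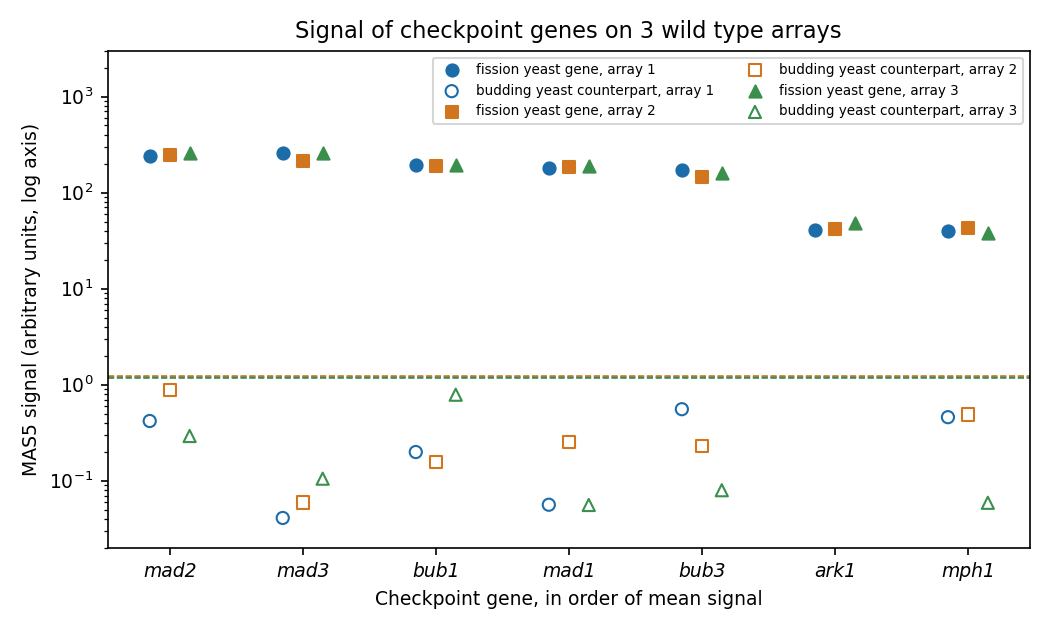
MAS5 signal (log axis, arbitrary units) of the 7 checkpoint genes on each of the 3 arrays (filled points) with the budding yeast counterparts on the same arrays (open points, none for ark1); dashed lines are the background limits of the arrays. The filled points lie between 38.4 and 259. All open points lie below the limits, as most probe sets of that yeast do by construction.

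**Figure D2:**
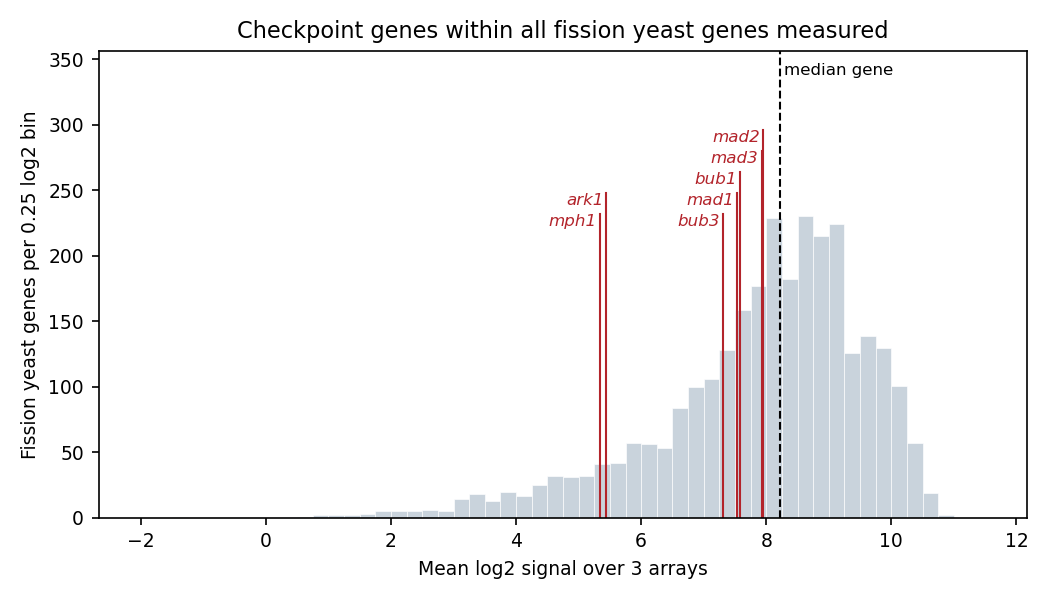
Number of fission yeast genes per bin of mean log2 signal over 3 arrays (grey bars, 2896 genes), with the 7 checkpoint genes as red lines and the median gene as a dashed line. All 7 lines lie left of the median at 8.22, with ark1 and mph1 apart from the other 5.

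The arrays also carry probe sets for the counterparts of these genes in budding yeast, Saccharomyces cerevisiae, whose RNA was not in the samples per the labels. Counterparts were found for 6 of the 7 genes: MAD1, MAD2, MAD3, BUB1, BUB3 and MPS1, the last being the counterpart of mph1. The Aurora kinase gene IPL1 was sought too, and is not analysed here. The 18 values of these probe sets ran from 0.041 to 0.887, and 0 of them were above the limit of their array. These probe sets are among the 2601 whose 95th percentile is the limit. Most such values lie below it by construction, so this count carries no test.

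The signals of MAD2 were 0.418, 0.887 and 0.292, and those of MAD3 were 0.041, 0.059 and 0.105. For MPS1 the signals were 0.459, 0.490 and 0.059. All of these probe sets varied widely between arrays, with SDs of log2 signal from 0.68 for MAD3 to 1.74 for MPS1. For the 7 fission yeast genes the SDs ran from 0.02 to 0.16. With all values below the limit, these probe sets have no order among themselves, and no fold against them is given. The distances of the fission yeast genes from the limit are those given above. The budding yeast symbols ARK1 and MPH1 were not used as counterparts: they name a kinase of the actin cytoskeleton and a DNA helicase, and their highest signals were 0.748 and 0.324.

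The arrays differed most for mad3, bub3 and ark1. For mad3, array 2 deviated by -0.28 from the mean of the other arrays, and 1.86% of all genes had a lower deviation on that array. For bub3 the deviation on array 2 was -0.22, with 3.49% of all genes lower. The difference between mad3 and bub3 was 0.58, 0.57 and 0.68 on arrays 1, 2 and 3. Both genes were named here for low values on array 2, so a similar difference there carries no test. The kinase gene bub1, whose product also binds Bub3, deviated by -0.04 on array 2, with 35.4% of all genes lower. There mad1 and mad2 deviated by -0.01 and -0.02, with 47.0% and 45.7% of all genes lower. Both had their lowest value on array 1. On array 2 all 5 Mad and Bub genes thus lay below the mean of the other arrays. So did ark1, which deviated by -0.07 there, with 22.2% of all genes lower. Of the checkpoint genes only mph1 lay above that mean, as did 47.0% of all genes. Lying below it was thus not particular to the Mad and Bub genes, and this count carries no test. The amounts differed from gene to gene, and those of mad1 and mad2 were near the median deviation of all genes, -0.007.

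The gene ark1 was 0.21 higher on array 3, with 97.2% of all genes lower, and deviated by -0.14 on array 1. The gene mph1 went the other way, at 0.13 on array 2 and -0.11 on array 3. Higher than the mean of the other arrays were 3 of 7 genes on array 1, 1 of 7 on array 2 and 6 of 7 on array 3, beside 48.9%, 47.0% and 53.8% of all genes. The median deviation of the 7 genes was -0.01, -0.04 and 0.06 on these arrays. The labels name no batch among the arrays, and these deviations were not tested.

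Set beside the 200 genes nearest in mean signal, the SD of mad3 was higher than 92.5% and that of bub3 higher than 79.5% of them. The SDs of bub1, mad1, mad2 and mph1 were higher than 9.0%, 17.5%, 26.0% and 30.5%, and that of ark1 higher than 61.0%. The spread of mad3 rested on array 2: without it the SD was 0.00062 in place of 0.16, and that of bub3 was 0.07 in place of 0.13. That of ark1 rested on array 3, without which it was 0.035 in place of 0.13. For these 3 genes the array left out lay furthest from the others, so a lower SD was fixed in advance. The median SD of the 7 genes was 0.08, and it was 0.05 without array 2 and 0.035 without array 3. The median over all genes was 0.06. Over the 200 genes nearest in signal it was 0.07 for each Mad and Bub gene and 0.11 for ark1 and mph1.

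**Figure D3:**
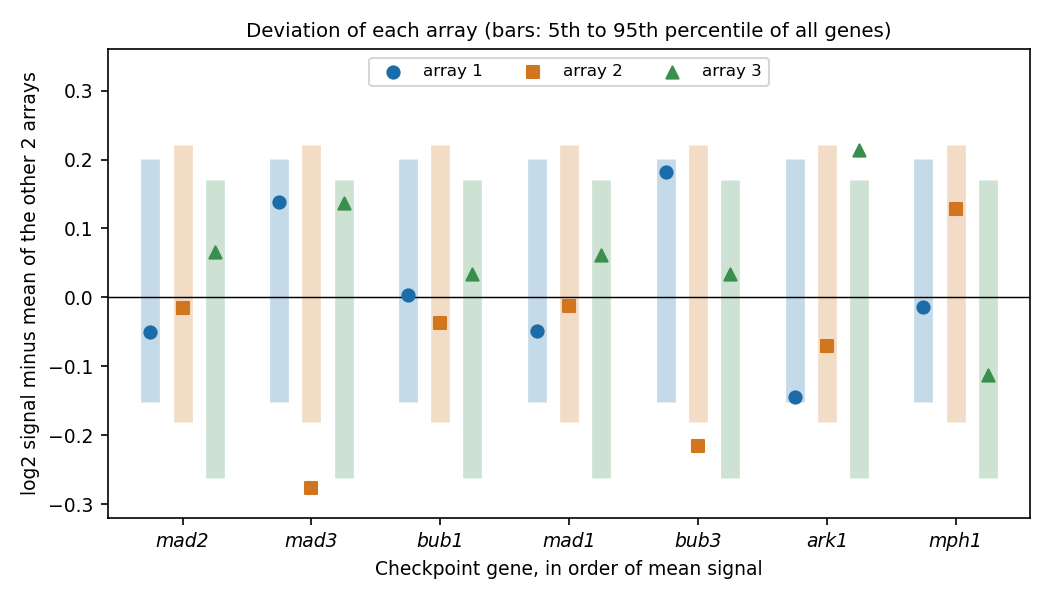
Deviation of the log2 signal on each array from the mean of the other arrays for the 7 checkpoint genes; shaded bars span the 5th to 95th percentile of the same deviation over all 2896 genes. On array 2, mad3 at -0.28 and bub3 at -0.22 lie below the bar, and on array 3 ark1 at 0.21 lies above it.

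For each checkpoint gene, the gene with the closest values over the 3 arrays was found by the root mean square difference of log2 signal. This likeness takes in both the level of a gene and its differences between arrays, and it carries no test. The closest were eaf7 to mad1 (0.012), coq8 to mad2 (0.016), mug110 to bub1 (0.020) and imt1 to mad3 (0.020). Less close were rrp8 to bub3 (0.033), snx3 to ark1 (0.046) and nif1 to mph1 (0.050). The signals of imt1 were 260, 213 and 265, a pattern fixed by its choice as the closest to mad3.

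The genes that the checkpoint acts on and is anchored to were described with 5 lists, from 38 names that gave 36 measured genes. All 36 were above the limit by limma, as were 99.9% of all genes. Of the 36, 30 lay below the median gene and 15 in the bottom 25%, beside 50.0% and 25.0% of all genes, and 1 lay in the top 25%. Their median log2 signal was 7.50, near the 7.54 of the checkpoint genes.

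The direct target of Mad2 and Mad3 was the brightest of these genes. The signal of slp1 was 664, 688 and 687, with a mean of 9.41 ± 0.03, and 83.0% of all genes were lower. The values of the arrays were close and lay above those of all 7 checkpoint genes. Separase, cut1, had 9.07 ± 0.04, and cyclin B, cdc13, had 8.43 ± 0.04. Securin, cut2, had signals of 32.8, 31.2 and 28.4 and a mean of 4.94 ± 0.11, below ark1 and mph1. The genes of separase and of its inhibitor securin thus lay on opposite sides of the checkpoint genes in signal.

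The APC/C, the ubiquitin ligase that the checkpoint holds back, had mostly dim probe sets. Of its 12 measured subunit genes, 9 lay in the lowest 25% of signal, with 0 in the top 25%, and the median was 6.39. The highest were apc14 at 8.78 ± 0.05 and cut23 at 8.14 ± 0.06, and the lowest were cut4 at 5.76 ± 0.08 and cut20 at 5.63 ± 0.19. The name lid1 is a synonym of cut20. The 5 Mad and Bub genes lay within the range of these subunits, and ark1 and mph1 lay below it.

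The outer kinetochore, where the checkpoint proteins assemble, had a median of 7.58. Of its 10 genes, 9 lay below the median gene and 2 in the bottom 25%, beside 50.0% and 25.0% of all genes. The range ran from mis14 at 8.92 ± 0.06 and nuf2 at 8.11 ± 0.03 to mis13 at 6.57 ± 0.08 and spc24 at 5.52 ± 0.16. The scaffold gene spc7, named here for its role and after its values were seen, had 7.96 ± 0.04, beside 7.58 for bub1 and 7.32 for bub3, which it recruits.

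Ark1 works in the chromosomal passenger complex, whose other genes were the INCENP gene pic1 at 7.69 ± 0.08, the survivin gene bir1 at 7.16 ± 0.16 and the borealin-like gene nbl1 at 4.15 ± 0.19. The value of ark1, 5.44 ± 0.13, lay between those of bir1 and nbl1, so the genes of 1 complex spanned a wide range of signal. The shugoshin gene sgo2, whose product is recruited to chromatin marked by Bub1, had 7.89 ± 0.04.

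Among genes that switch the checkpoint off or act beside it in mitosis, the protein phosphatase gene dis2 was highest at 8.83 ± 0.10. The kinesin genes klp5 and klp6, whose products act together, had 8.12 ± 0.05 and 5.21 ± 0.13. The Polo kinase gene plo1 had signals of 51.2, 47.1 and 45.8 and a mean of 5.58 ± 0.08. It lay close to ark1 and mph1 and, like them, in the bottom 25%. The kinase gene cdc2, named here after its values were seen, had 7.50 ± 0.05, near bub1, and neither was in the bottom 25%.

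**Figure D4:**
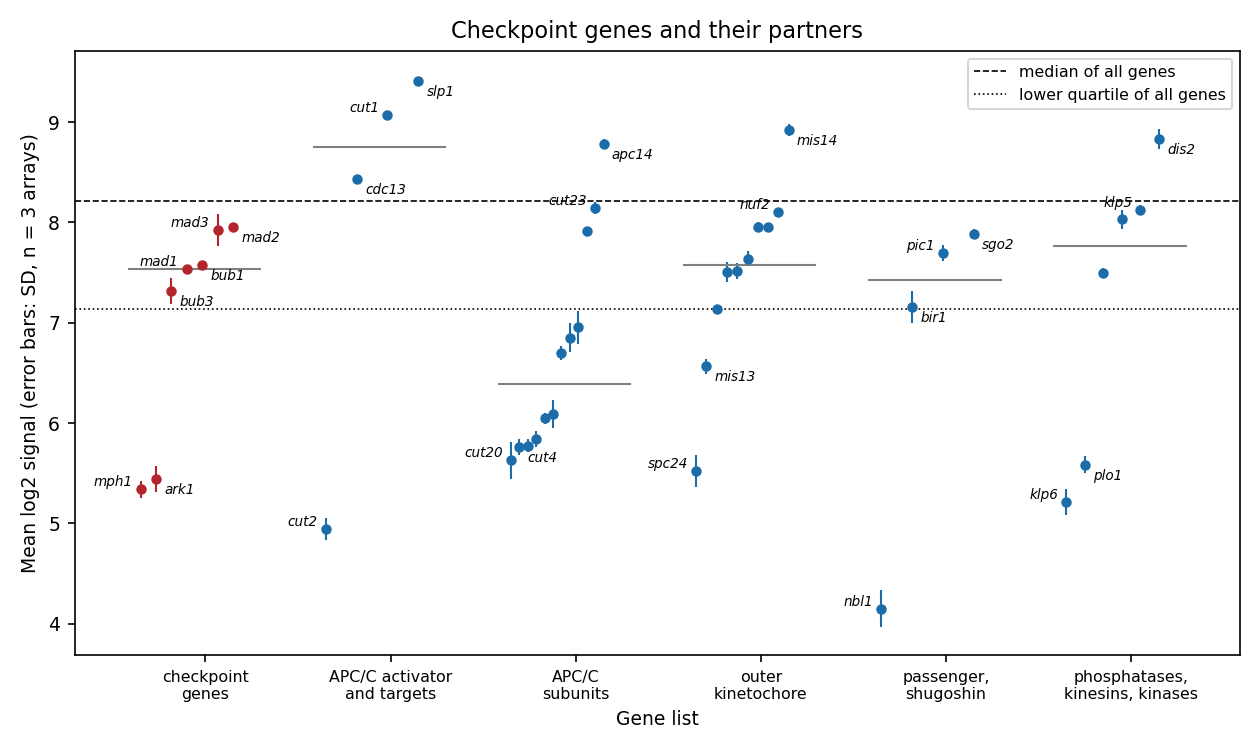
Mean log2 signal of the checkpoint genes (red) and of 5 partner lists (blue), with error bars of 1 SD over 3 arrays; grey lines are list medians, and the dashed and dotted lines are the median and lower quartile of all genes. The checkpoint genes run from 5.34 to 7.96, and slp1 at 9.41 lies above all of them.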

How the data were processed

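Total RNA of 3 wild type samples was labelled with biotin and hybridised to 1 array each. The authors deposited 1 linear signal intensity per probe set, background-corrected with MAS5, per the labels. No scaling target, scanner or probe mask was stated. The mean after trimming 2% at each end was 149.97 on each array, so values were used as deposited and turned into log2. No value was at or below 0.

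Of 10928 probe sets, 2914 named 1 fission yeast gene of assembly ASM294v3 (2896 genes, probe sets averaged), and 2601 carried capitalised symbols outside that table, taken as another yeast. Their 95th percentile on an array was its background limit. The 5224 probe sets without a gene symbol were left out, so all genes means the 2896 named genes throughout. R 4.3.3 with limma 3.58.1 tested log2 signal minus the limit against 0 (intercept, eBayes, both sides), and p-values were adjusted by Benjamini-Hochberg over 2896 genes, with a threshold of 0.05. The limma code was tested on simulated data. The set of members, the lists and the tests were chosen with earlier results of these data known. Named genes were the 7 members, slp1, the 2 highest and 2 lowest of each list, the closest gene to each member and the budding yeast counterparts. The small number of arrays limits the precision. Settings tried instead were quantile normalization, median centring, a pseudocount of 16, the 90th or 99th percentile as limit, each array left out, a gene's highest probe set, a filter on dim genes and a variance trend.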

Additional observations from a re-analysis of the deposited data

How the results depend on the processing

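The counts of checkpoint genes above the limit (7 of 7), below the median gene (7) and in the bottom 25% (2), and of partner genes above the limit (36), were the same under all 11 alternatives. Median centring, the other limits and the variance trend leave each gene's mean signal unchanged. Under these settings the counts below the median gene and in the bottom 25% could not move. The highest limma adjusted p of a checkpoint gene was 7.24e-09. With a pseudocount of 16 the genes were 1.71 to 3.94 above the limit, and the median log2 signal of the 7 was 7.66 in place of 7.54, by the construction of that scale. Leaving out each array in turn gave medians from 7.52 to 7.55, and median SDs from 0.035 to 0.11. The order of the 7 genes by signal was kept under 9 alternatives. Without array 2 mad3 and mad2 changed places, and without array 3 mph1 and ark1 did. Median centring, the other limits, the variance trend, the filter and the highest probe set of a gene could not change this order. The cause of the deviations of single arrays was not tested. The count of budding yeast counterparts with a mean above the limit was 0 with median centring and quantile normalization too. The limit was again set from the probe sets of that yeast. No paired analysis was possible because all arrays belong to 1 group.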
